A study of Mus musculus with 12 samples.

Results

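The comparison set cultured mouse myeloid progenitors that carried a Myc retrovirus and were labelled Zfx ko (Myc ko, 3 arrays) against progenitors that carried a GFP control virus and were labelled Zfx wt (GFP wt, 3 arrays). These are 6 of the 12 gene arrays of the series. They were chosen by sample title, and the question was which genes the addition of Myc and the loss of Zfx push together and which they cancel. The other 6 arrays hold each change alone: 3 of Myc virus with Zfx wt (Myc wt) and 3 of GFP virus with Zfx ko (GFP ko). They were used to split the combined change into its parts.

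Progenitors positive for c-Kit were taken from the bone marrow of CreER mice, in which tamoxifen activates the Cre recombinase. All 4 groups carried CreER and all came from mice given tamoxifen by gavage, 5 mg a day for 3 days. The genotype was Zfx fl/y for the arrays labelled ko and Zfx wt/y for those labelled wt. Both viruses marked cells with GFP. Cells were cultured for 48 hours after infection, sorted for GFP and grown for 4 more days in 20% serum with SCF, IL-6 and IL-3, all at 10 ng/mL. The labels do not say whether the arrays of a group came from separate animals or cultures, and p-values here reflect only how far these arrays spread, which may be technical.

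Myc is a transcription factor that binds DNA with its partner Max. It is known for raising genes of ribosome production, nucleotide synthesis and energy metabolism, and for holding back the maturation of myeloid cells when its level is high. Zfx is a zinc finger transcription factor encoded on the X chromosome, known for the maintenance of blood stem cells and for binding close to the start sites of the genes it acts on. In bone marrow, myeloid progenitors give rise to neutrophils, mast cells and basophils, red cells and platelets, and each of these fates has well-known marker genes.

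Intensities below are the deposited array values on their linear scale, and they compare arrays of the same gene, not genes with each other. The median intensity over all probe sets ranged from 127 to 137 between arrays. Log2 values of replicates correlated at 0.985 to 0.993 within groups, and the number of arrays limits the precision. The Zfx probe set read 862, 987 and 989 in GFP wt, 996, 972 and 1094 in GFP ko, 1019, 991 and 966 in Myc wt, and 1036, 1116 and 991 in Myc ko. The Myc ko arrays were therefore not lower than the GFP wt arrays for Zfx itself (1.11-fold higher, 95% interval 0.991 to 1.24, limma adjusted p = 0.23). Whether these probes lie in the deleted stretch was not tested, so the array gives no check of the deletion, and "ko" is used for the label throughout. Myc read 3146, 2787 and 3108 in GFP wt, 2841, 2551 and 2712 in GFP ko, 5356, 4842 and 5493 in Myc wt, and 5210, 4747 and 5180 in Myc ko. All 6 Myc virus arrays lay above all 6 GFP virus arrays, and Myc ko exceeded GFP wt 1.68-fold (1.5 to 1.87, limma adjusted p = 1.82e-04).

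Of 19938 genes, 3558 (17.8%) differed between Myc ko and GFP wt at an adjusted p under 0.05 in limma's test, 1946 higher (9.76%) and 1612 lower (8.09%). At least 2-fold changes were seen for 175 of the higher and 236 of the lower genes. The largest rises included Slc6a15, a neutral amino acid transporter, and Grb10, an adaptor of insulin-type growth factor receptors. The largest falls included the mast cell protease Mcpt2, the basophil proteases Prss34 and Mcpt8, and the histone demethylase Phf2. The arrays of the 2 groups did not overlap for 5838 genes (29.3%). With the replicate number as a block 5788 genes passed, 3098 higher and 2690 lower, and all 3558 were among them. Without GFP wt 3 the count was 2300.

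The combined change of each gene is the sum of 2 averages that do not share their error in this balanced design: the Myc effect averaged over wt and ko arrays, and the Zfx effect (ko minus wt) averaged over the GFP and Myc viruses. The average Myc effect passed the test for 4236 genes (21.2%), 2628 higher (13.2%) and 1608 lower (8.07%), and the average Zfx effect for 2406 (12.1%), 943 higher (4.73%) and 1463 lower (7.34%). With the block the Zfx count was 4583 and the Myc count 6380. Among the 3558 genes of the combined change, 1953 passed in the Myc average alone, 798 in the Zfx average alone, 537 in both and 270 in neither. The median size of the Myc average among them was 0.34 on the log2 scale, against 0.18 for the Zfx average.

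Genes that passed in both averages fall into 4 classes. Both averages were higher for 208 genes (1.04% of those tested) and both were lower for 232 (1.16%). Another 412 (2.07%) were higher with Myc and lower in ko, and 183 (0.918%) were lower with Myc and higher in ko. With the block these counts were 529, 579, 840 and 601. Without GFP wt 3 they fell to 124 and 152 for the first 2 classes, without GFP ko 3 the first was 134, and without Myc wt 3 the last was 117. All 440 genes pushed the same way also passed in the combined change. That follows from the arithmetic, since the combined change is the sum of the 2 averages, and is not a separate result. The Myc ko and GFP wt arrays enter both averages, so a gene that stands apart only in 1 of these groups can pass in both. With each change taken alone against GFP wt, the 4 classes held 31, 31, 115 and 33 genes. Below, raised or lowered by both changes means that both averages passed.

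**Figure D1:**
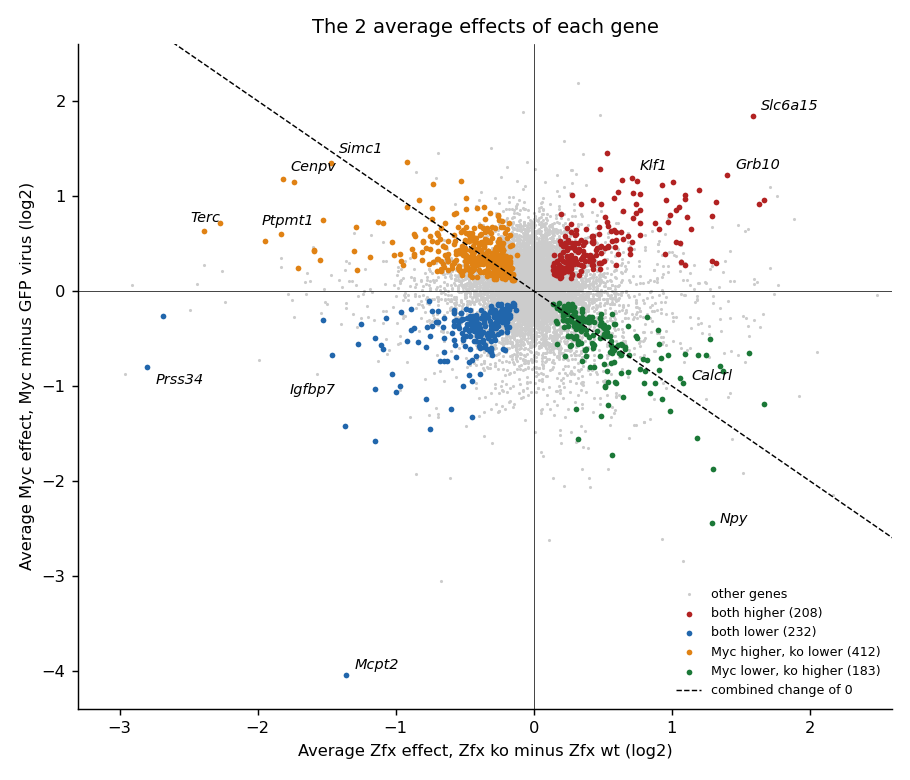
Average Myc effect (vertical, log2) against average Zfx effect (horizontal, log2) for the 19938 genes, 1 point per gene, coloured by class; the dashed line marks a combined change of 0. The 208 genes raised by both and the 232 lowered by both lie away from the line, while most of the 412 and 183 opposed genes lie close to it.

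Slc6a15 showed the largest rise of the combined change. It read 58.8, 111 and 66.3 in GFP wt, 138, 337 and 208 in GFP ko, 180, 328 and 274 in Myc wt, and 584, 1007 and 923 in Myc ko. The groups with a single change lay between the other 2 groups, and no Myc ko array overlapped an array of another group. In GFP wt it was dimmer than the median probe set. The combined rise was 10.8-fold (6.15 to 18.9, limma adjusted p = 2.41e-04), made of a Myc average of 1.84 and a Zfx average of 1.59 (log2). Grb10 read 241, 319 and 304 in GFP wt, 792, 792 and 977 in GFP ko, 422, 1086 and 923 in Myc wt, and 1310, 2001 and 2068 in Myc ko. Each single change lifted it above every GFP wt array, and together they raised it 6.15-fold (3.81 to 9.91, limma adjusted p = 4.14e-04).

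Other genes with large shares of both changes had different roles. Slc35f2, a solute carrier, rose 5.87-fold (3.83 to 9). Abcg2, a drug and porphyrin exporter known from blood stem cells, rose 4.2-fold (2.57 to 6.86). Abcb4, an exporter of phospholipids, rose 3.78-fold, and the carboxylesterase Ces2g rose 4.13-fold. Cda, which turns cytidine into uridine, rose 6.18-fold, from 198, 241 and 180 in GFP wt to 742, 1094 and 2498 in Myc ko. Its Myc average (0.96, limma adjusted p = 0.0235) missed the threshold without GFP wt 1, GFP ko 1, Myc wt 3, GFP wt 3 or GFP ko 3 (adjusted p up to 0.0584).

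In other large rises a single average passed. Tet1, an enzyme that oxidises methylated cytosine, read 193, 382 and 204 in GFP wt and 1128, 1354 and 1246 in Myc ko (5.02-fold, 3.11 to 8.11, limma adjusted p = 7.84e-04), with a Myc average of 1.85 and a Zfx average of 0.48 (adjusted p = 0.24, and under the threshold with the block). Lgmn, a lysosomal protease, rose 6.79-fold (3.32 to 13.9), with a Zfx average of 1.76 and a Myc average of 1.00 (adjusted p = 0.0548). P3h2, a collagen-modifying hydroxylase, rose 6.94-fold and the imprinted gene Peg10 rose 6.26-fold. With the block all 4 passed in both averages.

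**Figure D2:**
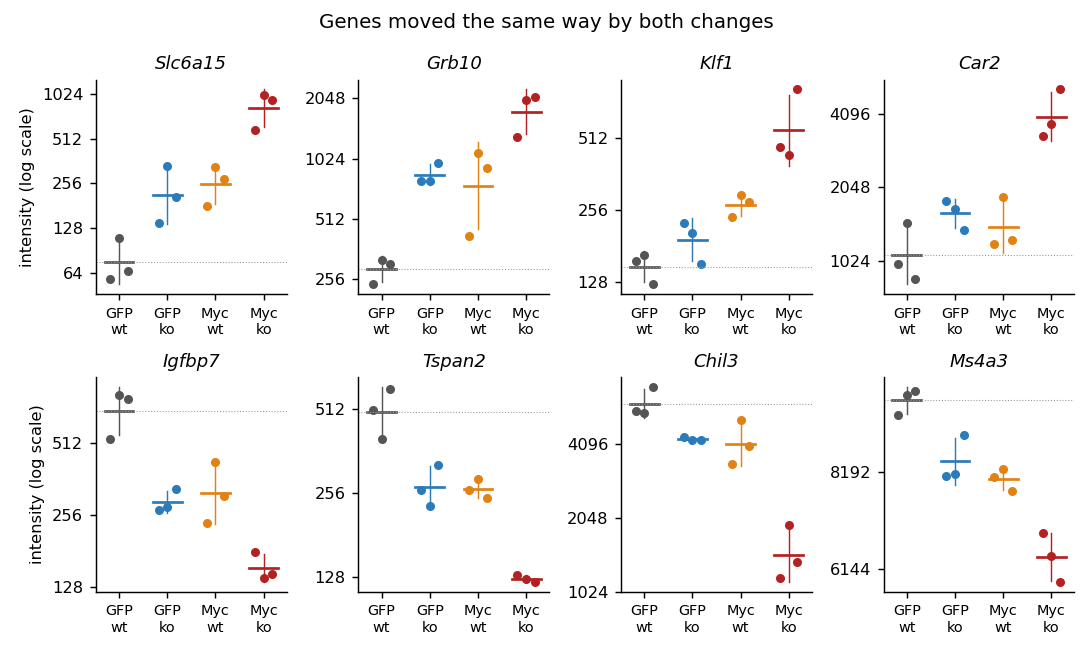
Intensity on a log2 axis for 8 genes moved the same way by both changes, 1 point per array, with the mean of the log2 values (horizontal bar), 1 SD (vertical line) and the GFP wt mean (dotted). In all 8 the Myc ko arrays lie outside the range of the GFP wt arrays, on the far side of the groups with a single change.

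Genes of the red cell lineage were higher in Myc ko. Of 15 measured erythroid genes, 10 rose in the combined change and 0 fell, with a median of 1.78 (log2) where the median of all genes was 0.00. Among all genes 9.76% rose and 8.09% fell. The list's median was 0.77 for the Myc average and 0.85 for the Zfx average. In both averages 8 of the 15 were called higher, where 1.04% of all genes were. With the block all 15 passed in the combined change. Klf1, a master regulator of red cell genes, read 157, 166 and 125 in GFP wt, 227, 206 and 152 in GFP ko, 240, 295 and 276 in Myc wt, and 473, 436 and 821 in Myc ko. Every Myc ko array lay above every other array, and the combined rise was 3.73-fold (2.61 to 5.33, limma adjusted p = 4.99e-04).

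Car2, the red cell carbonic anhydrase, read 999, 1462 and 864 in GFP wt, 1794, 1666 and 1378 in GFP ko, 1200, 1871 and 1251 in Myc wt, and 3314, 3706 and 5139 in Myc ko. It rose 3.69-fold (2.56 to 5.3, limma adjusted p = 5.74e-04), and its Myc ko arrays did not overlap those of any other group. The ranges of GFP ko and Myc wt each overlapped that of GFP wt. Membrane skeleton genes moved the same way, with Sptb (spectrin) 4.8-fold, Ank1 (ankyrin) 4.31-fold and Add2 (adducin) 2.8-fold higher. The blood group gene Ermap was 3.47-fold higher. For the membrane genes Sptb and Ank1 the third Myc ko array was the highest, at 2048 against 599 and 1194 for Sptb and at 1355 against 451 and 685 for Ank1.

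Gata1, the transcription factor shared by red cells, platelets and mast cells, rose from 218, 332 and 310 in GFP wt to 698, 967 and 1842 in Myc ko (3.81-fold, 2.16 to 6.71, limma adjusted p = 4.96e-03). Its GFP ko arrays lay between, at 546, 520 and 616, and its Myc wt arrays, at 317, 496 and 778, overlapped both. Epor, the erythropoietin receptor, rose 3.44-fold (2.2 to 5.37). The Myc averages of these 2 genes were close to the threshold (adjusted p = 0.0343 for Gata1 and 0.0473 for Epor) and missed it without any of 9 arrays for Gata1 (all but Myc wt 1, Myc ko 1 and GFP wt 2; up to 0.0837) and 8 arrays for Epor (all but Myc ko 1, Myc ko 2, GFP wt 2 and Myc ko 3; up to 0.113). The Epor average also missed it after a second quantile normalization (0.055). The Zfx average of Gata1 missed it without GFP wt 1 or GFP ko 3 (up to 0.0608).

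Not every red cell gene passed. Alas2, the first enzyme of heme synthesis in red cells, differed by 0.28 (log2, adjusted p = 0.177) and the transferrin receptor Tfrc by 0.22 (adjusted p = 0.383); both were named after their values were seen. The summed intensity of the 15 genes ranged from 6010 to 7868 over the GFP wt arrays, 7669 to 9114 over GFP ko, 7037 to 9245 over Myc wt and 12478 to 21516 over Myc ko. In bulk RNA a larger or smaller number of cells of a type and a larger or smaller amount of RNA per cell cannot be told apart.

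Megakaryocyte genes, which mark the platelet lineage, had averages with medians of opposite sign. Of 10 measured, 0 passed in the combined change in limma's test (median 0.51, log2; 1 was higher and 0 lower at an unadjusted p under 0.05), against a median of -0.56 for the Myc average and 1.27 for the Zfx average. The Zfx average passed for 7 of the 10, all higher, and the Myc average for 2, both lower. Among all genes 4.73% were higher in the Zfx average and 8.07% lower in the Myc average. A single gene passed in both averages, in opposite directions, and 0 were called cancelled. With the block the Zfx average was higher for 9, the Myc average was lower for 7, and 6 passed in both in opposite directions. Summed intensity was 8896 to 16902 in GFP wt, 24500 to 32259 in GFP ko, 2664 to 8921 in Myc wt and 6947 to 20418 in Myc ko, so the ranges of Myc ko and GFP wt overlapped. Pf4, a platelet chemokine, differed by 1.26 in the combined change (adjusted p = 0.137), with a Zfx average of 1.64; it was named after its values were seen. In the combined change 5 of the 10 rose and 1 fell with the block, and without Myc ko 1 also 5 rose.

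Mast cell and basophil genes were lower in Myc ko. Of 18 measured, 12 fell and 0 rose, where 8.09% of all genes fell and 9.76% rose. The median was -1.18 for the combined change, -0.74 for the Myc average and -0.57 for the Zfx average (log2). Mcpt2, a mast cell protease, read 3743, 2182 and 5759 in GFP wt, 1852, 1249 and 3190 in GFP ko, 297, 462 and 201 in Myc wt, and 47.7, 176 and 74.5 in Myc ko. It was 42.2-fold lower (18.5 to 96.2, limma adjusted p = 1.88e-04), the largest fall of any named gene, and every Myc virus array lay below every GFP virus array. Its Zfx average (-1.36, adjusted p = 0.0423) missed the threshold without any of 8 arrays (all but GFP wt 2, Myc ko 2, Myc wt 3 and GFP ko 3; up to 0.105) and under a trended and robust prior (0.0652).

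Prss34, a protease of basophils, showed the reverse balance. It read 2170, 3062 and 2397 in GFP wt, 408, 215 and 251 in GFP ko, 653, 1192 and 1815 in Myc wt, and 215, 210 and 195 in Myc ko. Both ko groups lay far below both wt groups, and the combined fall was 12.2-fold (7.32 to 20.3, limma adjusted p = 1.24e-04), with a Zfx average of -2.80. The Myc average (-0.80, adjusted p = 0.0325) missed the threshold without any of 8 arrays (all but Myc wt 1, GFP wt 1, GFP ko 2 and Myc wt 3; up to 0.0737). Mcpt8, another basophil protease, read 4593, 5545 and 5411 in GFP wt and 598, 807 and 999 in Myc ko, 6.59-fold lower (3.95 to 11), with most of the fall again in the Zfx average (-1.99).

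Mcpt1, close in sequence to Mcpt2, was 6.87-fold lower, and probes of such related proteases may read each other's RNA, so their separate values are uncertain. Gzmb, a granule protease found in mast cells as well as lymphocytes, read 1053, 1136 and 867 in GFP wt and 77.5, 84.7 and 69.1 in Myc ko (13.2-fold lower, 5.35 to 32.4, limma adjusted p = 1.85e-03), with a Myc average of -3.05 and a Zfx average of -0.67 (adjusted p = 0.425). Only Mcpt2, Prss34 and the chymase Cma1 passed in both averages among the 18 genes of the list, where both lowered 1.16% of all genes. That count was 7 with the block, and it was 0 without Myc ko 1 or GFP ko 1 and 1 without GFP wt 1, Myc wt 2, Myc ko 3, GFP wt 3 or GFP ko 3. Summed intensity fell from 39599 to 48112 in GFP wt to 18520 to 22619 in Myc ko.

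**Figure D3:**
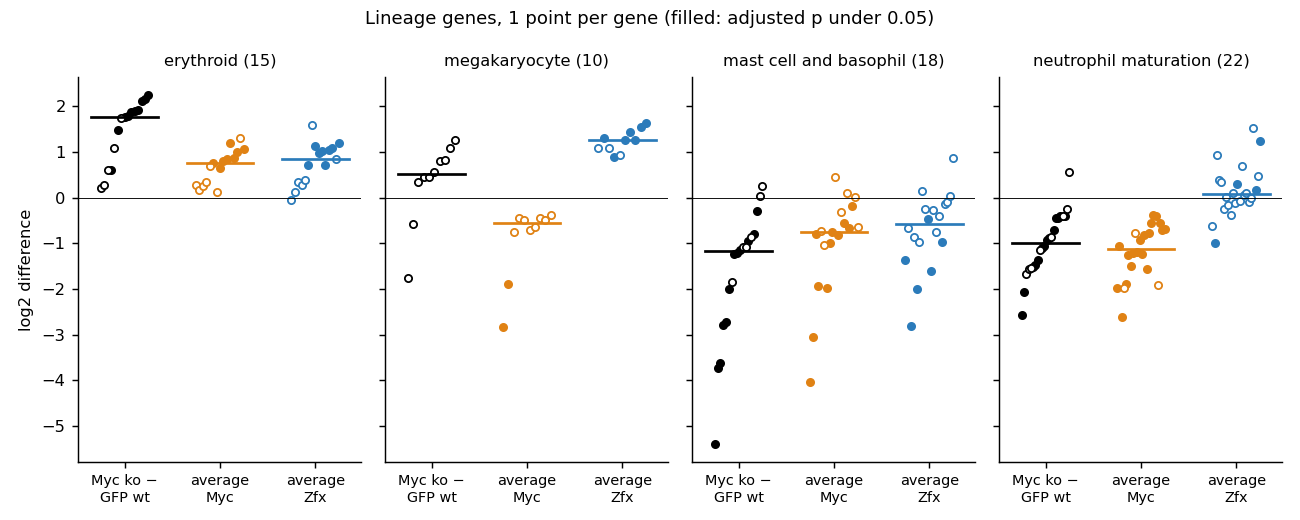
Log2 differences of the measured genes of 4 lineage lists, 1 point per gene, for the combined change (black), the average Myc effect (orange) and the average Zfx effect (blue); bars are medians and filled points have an adjusted p under 0.05. Both averages are mostly above 0 for erythroid genes and mostly below 0 for mast cell and basophil genes, and they lie on opposite sides of 0 for megakaryocyte genes.

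Genes of neutrophil maturation were lower, and the larger part was the Myc average. Of 22 measured, 14 fell and 0 rose, where 8.09% of all genes fell and 9.76% rose. The median was -0.99 for the combined change, -1.12 for the Myc average and 0.09 for the Zfx average (log2). In the Zfx average 3 of the 22 rose and 1 fell (7 and 2 with the block), where 4.73% of all genes rose and 7.34% fell. The count of falls was 9 without Myc ko 1, GFP wt 1 or Myc ko 3, and without GFP wt 3 it was 7, with 1 rise. Cd177, a neutrophil surface protein, read 4883, 5669 and 5312 in GFP wt and 1427, 2418 and 1818 in Myc ko (2.86-fold lower, 1.8 to 4.54, limma adjusted p = 6.00e-03). Chil3, a secreted chitinase-like protein, was the 1 gene of the list lowered by both changes. It read 5615, 5499 and 7021 in GFP wt, 4378, 4273 and 4257 in GFP ko, 3393, 5136 and 4024 in Myc wt, and 1168, 1909 and 1349 in Myc ko. Its Myc ko arrays lay below those of all other groups, with a fall of 4.16-fold (3.12 to 5.55, limma adjusted p = 1.18e-04).

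Mmp8, the neutrophil collagenase, went the other way in the Zfx part. It read 2242, 2599 and 3762 in GFP wt, 6792, 6870 and 8663 in GFP ko, 2293, 1732 and 1840 in Myc wt, and 3430, 4330 and 4755 in Myc ko. GFP ko stood above all other groups, while the ranges of Myc ko and GFP wt overlapped. The combined difference was 0.56 (log2, adjusted p = 0.0792; 0.0254 with the block and 0.02 without GFP wt 3), from a Myc average of -0.68 and a Zfx average of 1.25. Itgam, an integrin of mature myeloid cells, and Lcn2, a secondary granule protein, were also lower with Myc and higher in ko, and both stayed below GFP wt in Myc ko (1.9-fold and 1.32-fold). Their Zfx averages were small (0.31 and 0.17), and they passed only without GFP ko 2, Myc wt 3 or GFP wt 3 for Itgam and only without Myc wt 2 for Lcn2 when a single array was left out. After a second quantile normalization both missed the threshold (0.059 and 0.0561), and with the arrays centred on their medians Lcn2 did (0.0668).

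Primary granule genes, made earlier in the neutrophil series, fell in 6 of 8 cases (median -0.40, log2), and in 3 without GFP wt 3. Among all genes 8.09% fell. Ms4a3, a cell cycle regulator of myeloid progenitors, read 9721, 10328 and 10468 in GFP wt, 8110, 8154 and 9176 in GFP ko, 8079, 8267 and 7760 in Myc wt, and 6829, 6385 and 5901 in Myc ko. Its 2 averages were alike in size (-0.38 and -0.30), and the combined fall was 1.6-fold (1.44 to 1.78, limma adjusted p = 2.13e-04). Nkg7, a granule membrane protein, fell 5.49-fold (2.76 to 10.9), and elastase (Elane) fell 1.33-fold, with an adjusted p of 0.0502 in a fit of the 2 groups alone.

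Monocyte, eosinophil, dendritic cell and lymphoid markers are set here against the share of all genes that passed in the combined change, 9.76% higher and 8.09% lower. Of 22 monocyte and macrophage genes, 0 rose and 1 fell, the Fc receptor Fcgr4 (2.01-fold, adjusted p = 0.0137), whose call was lost without Myc ko 2; with the block 4 rose and 5 fell. Among 8 eosinophil genes 1 fell, Siglecf (1.54-fold, adjusted p = 0.0485), lost without 9 of the 12 arrays (all but GFP wt 2, GFP ko 2 and Myc wt 3) and in a fit of the 2 groups alone (0.0757). With the block 2 of the 8 fell. None of 13 dendritic cell, 9 B lymphoid and 9 T lymphoid genes passed in limma's test, and at an unadjusted p under 0.05 a single B lymphoid gene was lower; with the block 1 dendritic cell gene rose. Only 2 of the B and 0 of the T lymphoid genes had a mean above the median of all probe sets. More of the stem and progenitor genes passed: of 24, 3 rose and 6 fell (9 and 8 with the block; 5 rose without Myc ko 1). Hoxa9, a homeobox factor of progenitors, fell 3.34-fold (2.61 to 4.29, limma adjusted p = 1.26e-04), while its partner Meis1 rose 3.26-fold (2.1 to 5.07, adjusted p = 2.60e-03), and in both the larger part was the Zfx average (-1.40 and 1.39).

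Genes lowered by both changes also included secreted and membrane proteins outside the lineage lists. Igfbp7, a secreted binder of growth factors, read 534, 814 and 783 in GFP wt, 269, 276 and 329 in GFP ko, 238, 428 and 309 in Myc wt, and 179, 139 and 145 in Myc ko. Each single change lowered it below every GFP wt array, and together they gave a 4.55-fold fall (3.26 to 6.36, limma adjusted p = 1.88e-04). Tspan2, a tetraspanin, read 508, 399 and 603 in GFP wt, 262, 229 and 322 in GFP ko, 262, 287 and 246 in Myc wt, and 130, 126 and 123 in Myc ko. The 2 groups with a single change overlapped each other and neither overlapped the outer groups, and the combined fall was 3.92-fold (3.12 to 4.94, limma adjusted p = 4.10e-05).

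Fbp1, an enzyme of gluconeogenesis, fell 3.77-fold (2.84 to 5.02) and Gria3, a glutamate receptor subunit, fell 6.91-fold (3.52 to 13.6). Il6, a cytokine that was also supplied in the medium, fell from 533, 635 and 682 in GFP wt to 72.2, 94.9 and 115 in Myc ko (6.63-fold, 3.32 to 13.3, limma adjusted p = 2.40e-03). Its Myc average was -1.58, and its Zfx average (-1.15, adjusted p = 0.0415) missed the threshold without any array other than Myc wt 1 and GFP ko 1 (up to 0.101) and under a trended and robust prior (0.0587). Some large falls came from the Zfx part. Phf2 read 1766, 1615 and 1857 in GFP wt, 337, 258 and 264 in GFP ko, 1630, 1485 and 1504 in Myc wt, and 243, 228 and 206 in Myc ko (7.74-fold lower, 6.58 to 9.11, limma adjusted p = 8.06e-07). Cibar1, a gene of cilium formation, fell 7.22-fold (5.61 to 9.31) with a Myc average of 0.06, and Idh2, a mitochondrial isocitrate dehydrogenase, fell 1.56-fold (1.39 to 1.76, limma adjusted p = 4.79e-04) with a Zfx average of -0.77 and a Myc average of 0.12.

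Of the 595 opposed genes, 445 were called cancelled: the combined change did not pass and its 95% interval lay within 1.5-fold on both sides. Where the 2 opposed averages are each within 1.5-fold, their sum is too, so the call then adds little. Such genes were not counted apart. They were 315 of the 412 genes higher with Myc and lower in ko, and 130 of the 183 with the reverse pattern. In the first class the Zfx part prevailed in 52 genes and the Myc part in 28, and 17 were not resolved. In the second class the Zfx part prevailed in 5 and the Myc part in 12, and 36 were not resolved. With the block 975 genes were called cancelled. In the first class the Zfx part then prevailed in 136 genes and the Myc part in 117, with 12 not resolved. In the second class the Zfx part prevailed in 36 and the Myc part in 104, with 61 not resolved.

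The sequence before the start site is shown for 3 opposed genes, because Zfx and Myc are both known to act near start sites. These 3, all higher with Myc and lower in ko, were picked by name and do not stand for their class. In that class 13.1% of the 300-base windows described below held AGGCCT. The 250 bases before the annotated start, from RefSeq on mouse build GRCm38.p6, all on the minus strand and written 5′ to 3′, are given for Cenpv (chr11:62539262-62539511), Tarbp1 (chr8:126475066-126475315) and Ptpmt1 (chr2:90918051-90918300). Capitals mark the letters AGGCCT, the core of the published Zfx motif, which reads the same on both strands.
Cenpv: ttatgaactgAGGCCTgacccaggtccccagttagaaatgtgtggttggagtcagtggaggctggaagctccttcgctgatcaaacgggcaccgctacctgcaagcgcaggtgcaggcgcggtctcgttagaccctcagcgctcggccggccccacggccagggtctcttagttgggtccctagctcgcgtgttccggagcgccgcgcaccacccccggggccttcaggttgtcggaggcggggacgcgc
Tarbp1: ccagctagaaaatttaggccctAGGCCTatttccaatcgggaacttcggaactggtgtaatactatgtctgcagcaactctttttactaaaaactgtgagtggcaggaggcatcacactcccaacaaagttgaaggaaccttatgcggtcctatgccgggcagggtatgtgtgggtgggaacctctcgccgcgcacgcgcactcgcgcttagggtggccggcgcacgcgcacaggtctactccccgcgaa
Ptpmt1: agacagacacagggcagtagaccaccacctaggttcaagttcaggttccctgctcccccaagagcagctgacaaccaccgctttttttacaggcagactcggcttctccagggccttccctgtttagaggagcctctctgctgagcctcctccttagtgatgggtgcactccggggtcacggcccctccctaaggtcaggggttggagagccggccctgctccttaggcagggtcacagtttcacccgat
The first match began 240 bases before the start in Cenpv and 228 bases before it in Tarbp1, and Cenpv held 1 more in the 50 bases after the start. Ptpmt1 held none, and none of the 3 windows held CACGTG, the E-box bound by Myc and Max, also the same on both strands.

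Over the 300-base windows (250 before to 50 after the start) of all measured genes, of which 15563 matched 19116 windows, 10.2% held AGGCCT and 8.26% held CACGTG. The genes higher with Myc and lower in ko held AGGCCT in 13.1% and CACGTG in 13.6% of 427 windows. The reverse class held them in 11.4% and 4.09% of 220 windows. Genes raised by both held them in 8.13% and 10% of 209 windows, and genes lowered by both in 9.76% and 10.6% of 246 windows. These shares are descriptions, windows of a gene can overlap, and a match is not evidence of binding.

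Ptpmt1, a phosphatase of the mitochondrial inner membrane, read 896, 1155 and 936 in GFP wt, 282, 423 and 347 in GFP ko, 1380, 1394 and 1281 in Myc wt, and 565, 700 and 679 in Myc ko. Myc raised it in both genotypes, and the Myc ko arrays still lay below every GFP wt array. The combined change was a 1.53-fold fall (1.22 to 1.92, limma adjusted p = 0.0148), from a Myc average of 0.67 and a Zfx average of -1.29. The call was lost without Myc ko 1 (adjusted p = 0.0527) or GFP wt 2 (0.0507).

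Cenpv, a centromere protein, gave the same order of groups with larger parts. It read 2361, 2530 and 2512 in GFP wt, 417, 592 and 480 in GFP ko, 3743, 3768 and 4305 in Myc wt, and 1492, 1525 and 1751 in Myc ko. None of the 4 groups overlapped, and Myc ko was 1.56-fold below GFP wt (1.3 to 1.86, limma adjusted p = 4.24e-03), with averages of 1.18 for Myc and -1.82 for Zfx. Retsat, which saturates retinol, read 481, 560 and 529 in GFP wt, 136, 141 and 158 in GFP ko, 1001, 1044 and 1187 in Myc wt, and 367, 322 and 355 in Myc ko (1.5-fold lower, 1.31 to 1.72, limma adjusted p = 1.61e-03). Prkar2a, a regulatory subunit of protein kinase A, was 1.71-fold lower (1.29 to 2.28, adjusted p = 0.015), a call lost without Myc ko 3 (0.0613) or GFP wt 3 (0.0502).

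Terc, the RNA template of telomerase, read 3499, 4480 and 4410 in GFP wt, 437, 739 and 610 in GFP ko, 4403, 5005 and 4783 in Myc wt, and 809, 1392 and 1604 in Myc ko. The ko groups lay well below the wt groups under both viruses, and Myc ko was 3.37-fold below GFP wt (2.3 to 4.93, limma adjusted p = 1.04e-03). Its Myc average of 0.63 (adjusted p = 0.025) missed the threshold without GFP wt 1, GFP ko 1, Myc wt 2, Myc ko 2, Myc wt 3 or Myc ko 3 (up to 0.0628). Dkc1, the protein partner of Terc in telomerase, rose 1.55-fold (1.27 to 1.89) with a Zfx average of 0.05.

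**Figure D4:**
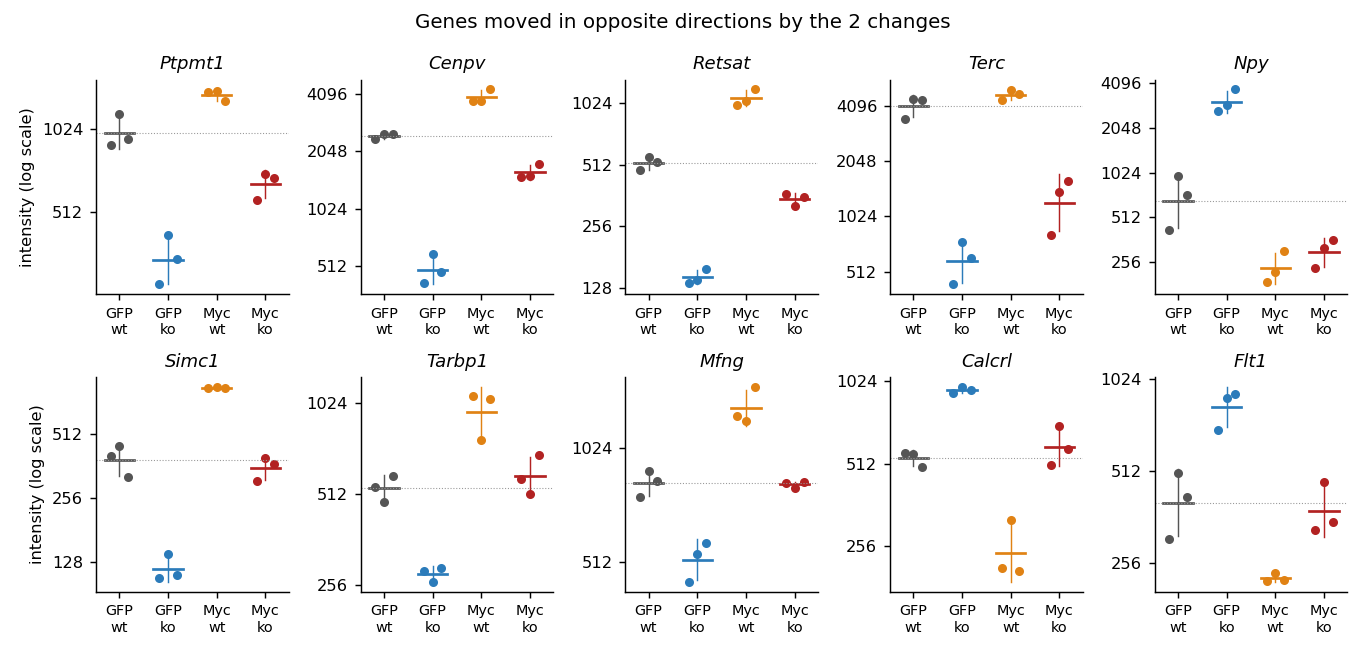
Intensity on a log2 axis for 10 genes moved in opposite directions by the 2 changes, 1 point per array, with the mean of the log2 values (horizontal bar), 1 SD (vertical line) and the GFP wt mean (dotted). In the upper row Myc ko stays below GFP wt (Npy through the Myc part, the other 4 through the Zfx part), and in the lower row the Myc ko arrays overlap the GFP wt arrays.

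The Myc ko arrays overlapped the GFP wt arrays in 362 of the 445 cancelled genes and did not in the other 83. Among all genes 29.3% did not overlap. Cancelled genes were picked for a combined change that did not pass, which favours overlap. Simc1, a SUMO-binding protein, read 402, 451 and 320 in GFP wt, 108, 140 and 111 in GFP ko, 838, 849 and 840 in Myc wt, and 307, 396 and 370 in Myc ko. The single changes moved it to opposite extremes, with averages of 1.35 for Myc and -1.47 for Zfx, and the combined difference was -0.12 (log2, -0.43 to 0.19 by its 95% interval). Tarbp1, an RNA methyltransferase, read 538, 481 and 587 in GFP wt, 284, 261 and 290 in GFP ko, 1077, 772 and 1053 in Myc wt, and 572, 510 and 685 in Myc ko, with a combined difference of 0.13. Mfng, which adds sugars to Notch receptors, read 761, 892 and 840 in GFP wt and 826, 805 and 831 in Myc ko, a difference of -0.01, while GFP ko read 454, 539 and 575 and Myc wt 1244, 1209 and 1480.

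The lysine methyltransferase Smyd2 (averages 0.87 and -0.74) and the apoptosis inhibitor Aven (0.88 and -0.92) were cancelled in the same direction. Genes of mitochondrial metabolism and DNA replication were among the smaller cases. Ndufa8, a subunit of complex I, had averages of 0.32 and -0.29 and a combined difference of 0.03. Dlst, a subunit of the 2-oxoglutarate dehydrogenase of the citrate cycle, had 0.23 and -0.20, and the mitochondrial ribosome protein Mrps26 had 0.54 and -0.50. Pola2, a subunit of the replication polymerase that primes DNA, had 0.40 and -0.30. In these smaller cases each average was itself within 1.5-fold.

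Genes lower with Myc and higher in ko included receptors. Calcrl, a receptor for adrenomedullin, read 558, 557 and 496 in GFP wt, 929, 975 and 954 in GFP ko, 212, 319 and 206 in Myc wt, and 506, 705 and 579 in Myc ko. GFP ko and Myc wt stood on opposite sides, and the combined difference was 0.14 (log2, adjusted p = 0.713). Flt1, a receptor for vascular endothelial growth factor, read 307, 504 and 422 in GFP wt, 697, 889 and 915 in GFP ko, 224, 237 and 226 in Myc wt, and 328, 471 and 350 in Myc ko, with a combined difference of -0.09. The lectin-like ligand Clec2d (averages -0.97 and 1.08) and the hyaluronan receptor Layn (-0.71 and 0.92) were also called cancelled.

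Npy, which encodes neuropeptide Y, was opposed but not cancelled. It read 418, 968 and 721 in GFP wt, 2664, 2929 and 3715 in GFP ko, 188, 218 and 304 in Myc wt, and 233, 317 and 359 in Myc ko. The high level of GFP ko was not seen in Myc ko, which lay below every GFP wt array (2.22-fold, 1.41 to 3.5, limma adjusted p = 0.0209). The call was lost without Myc ko 1, GFP wt 2 or GFP wt 3 (adjusted p up to 0.0752) and in a fit of the 2 groups alone (0.0617). Pla2g7, which breaks down platelet-activating factor, had averages of -1.19 and 1.67 and was not resolved (combined 0.49, adjusted p = 0.3).

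Interferon response genes were opposed in part. Of 19 measured, 7 rose and 1 fell in the Zfx average and 1 rose and 6 fell in the Myc average, while 1 rose and 1 fell in the combined change (2 and 1 with the block). Among all genes 4.73% rose and 7.34% fell in the Zfx average, and 13.2% and 8.07% in the Myc average. In the combined change 9.76% of all genes rose and 8.09% fell. Irf7, a transcription factor of the interferon response, read 93.2, 136 and 131 in GFP wt, 174, 137 and 183 in GFP ko, 79.1, 84.7 and 83.8 in Myc wt, and 137, 102 and 119 in Myc ko, with a combined difference of 0.00. Oas3 and Usp18 were cancelled likewise (0.11 and -0.03), all 3 at intensities near the array median. Of the 19 genes, 8 had a mean above the median of all probe sets. Bst2 was cancelled in the other direction, higher with Myc and lower in ko. Its Myc average (limma adjusted p = 0.0431) missed the threshold without any of 9 arrays (up to 0.104). The 1 fall was Ddx58 (limma adjusted p = 0.0159), lost without GFP wt 2, Myc ko 3 or GFP wt 3. Oasl2 kept the rise of the Zfx part (1.48-fold, 1.32 to 1.64, limma adjusted p = 5.74e-04).

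Lists of growth genes had combined medians close to those of the Myc average and Zfx medians near 0, although single members passed in the Zfx average in both directions. Their counts stand against 9.76% higher and 8.09% lower among all genes in the combined change, and 4.73% and 7.34% in the Zfx average. Of 48 ribosome biogenesis genes, 45 rose and 0 fell in the combined change, with a median of 0.58 (log2), a Myc average median of 0.58 and a Zfx average median of -0.01. In the Zfx average 1 of the 48 rose and 1 fell (3 and 5 with the block). Polr1e, a subunit of RNA polymerase I, rose 1.73-fold (1.56 to 1.91, limma adjusted p = 7.88e-05) and was the 1 gene of the list raised by both changes (0.54 and 0.25). It read 856, 801 and 813 in GFP wt, 888, 968 and 1053 in GFP ko, 1146, 1192 and 1226 in Myc wt, and 1373, 1453 and 1440 in Myc ko, with no overlap between the groups. Utp4, a processing factor of the small subunit RNA, rose 1.86-fold and Polr1b, the second largest subunit of polymerase I, 1.69-fold.

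Enzymes that charge tRNAs in the cytosol rose in 15 of 18 cases with 0 falls (median 0.44), with Lars at 1.69-fold (1.51 to 1.9) raised by both changes; in the Zfx average 1 rose and 1 fell (2 and 2 with the block). Of 26 nucleotide synthesis genes, 15 rose and 2 fell (median 0.48), led by Pfas, a purine enzyme, at 1.67-fold (1.47 to 1.9), and in the Zfx average 0 rose and 2 fell (1 and 4 with the block). Of 74 mitochondrial ribosome genes, 37 rose and 0 fell (median 0.31), 24 without Myc ko 3 and 23 without GFP wt 3. In the Zfx average 1 of the 74 rose and 5 fell (7 and 9 with the block), where 4.73% of all genes rose and 7.34% fell. Those 5 were all higher with Myc, and 4 of them were called cancelled. The opposed count was 3 with centred arrays or without Myc wt 1, among others, 6 without GFP ko 2 and 9 with the block. The Zfx average missed the threshold without any of 11 arrays for Mrpl18 and any of 8 for Mrps34 (limma adjusted p up to 0.0999 and 0.089). Mrps5 read 1111, 1191 and 1104 in GFP wt and 1984, 1788 and 2178 in Myc ko (1.74-fold, 1.55 to 1.96, limma adjusted p = 1.34e-04).

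Of 38 genes of oxidative phosphorylation 17 rose and 0 fell (median 0.21), 9 without GFP wt 3 and 11 in a fit of the 2 groups alone. In the Zfx average 2 of them rose and 4 fell (4 and 6 with the block), where 4.73% of all genes rose and 7.34% fell. Of the falls, 3 were opposed by Myc, and all 3 were called cancelled. The opposed count was 1 without Myc wt 1, Myc ko 1, GFP wt 1 or GFP ko 1, among others, and 5 with the block. The Zfx average of Ndufb10 missed the threshold without any of 9 arrays (limma adjusted p up to 0.0756). After a second quantile normalization both averages of Sdha missed it (0.114 and 0.0931). Of 15 citrate cycle genes 6 rose and 1 fell, the fall being Idh2. In the Zfx average 0 of the 15 rose and 4 fell, where 7.34% of all genes fell, and 2 of the 4 were opposed by Myc and called cancelled. That opposed count was 1 after a second quantile normalization or without Myc wt 1, among others, and 4 with the block. Suclg2, a subunit of succinyl-CoA ligase, rose 1.67-fold (1.49 to 1.88), from 1233, 1344 and 1345 in GFP wt to 2154, 2264 and 2144 in Myc ko. Of 17 glycolysis genes 2 rose (Pfkl, 1.48-fold, and Aldoc, 1.95-fold), where 9.76% of all genes rose. With the block 6 rose, and 4 under a trended and robust prior. The Aldoc call was lost without Myc ko 1, GFP wt 1, Myc ko 2 or GFP wt 3 and in a fit of the 2 groups alone (0.0514).

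**Figure D5:**
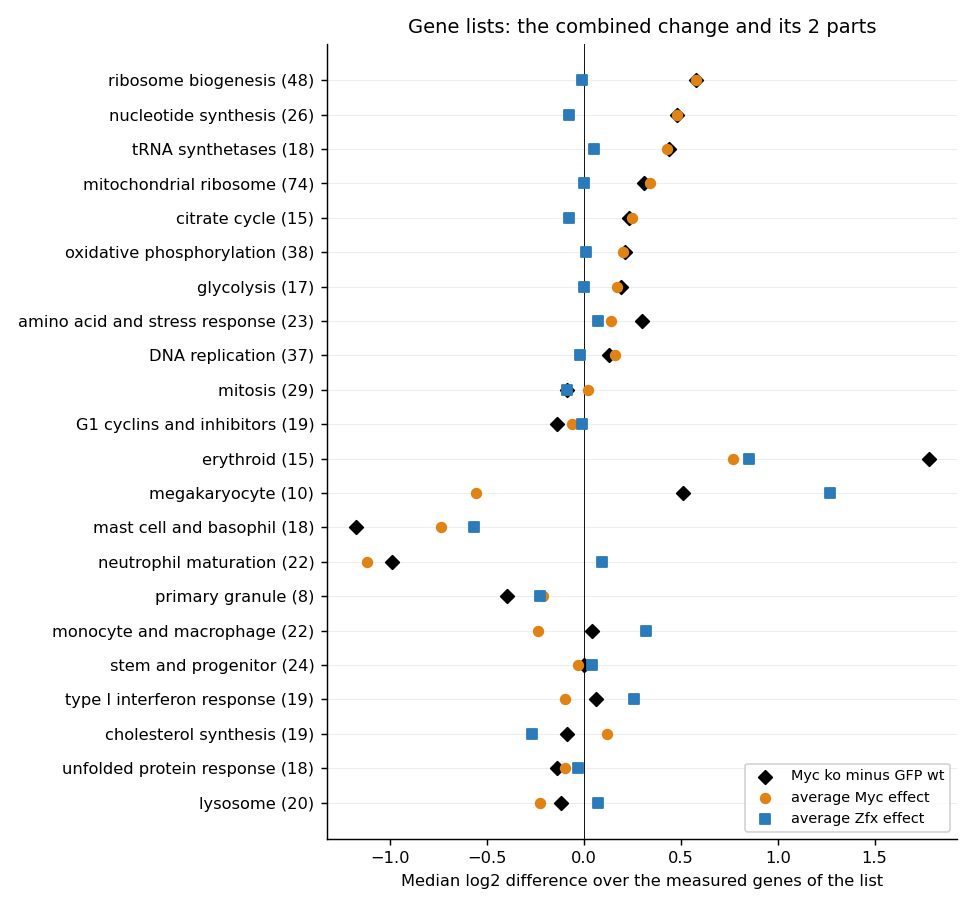
Median log2 difference over the measured genes of each list (number in brackets) for the combined change (black diamonds), the average Myc effect (orange circles) and the average Zfx effect (blue squares). Growth lists have Zfx medians between -0.08 and 0.05 and combined medians close to the Myc median, the erythroid and mast cell lists have both parts on 1 side of 0, and the megakaryocyte list has them on opposite sides.

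Genes of the amino acid response, which cells use when amino acids run short, rose in 7 of 23 cases with 0 falls (14 and 1 with the block). Among all genes 9.76% rose and 8.09% fell. Asns, asparagine synthetase, read 2942, 2931 and 2571 in GFP wt, 3326, 3051 and 3822 in GFP ko, 3466, 4292 and 3945 in Myc wt, and 4943, 4919 and 5650 in Myc ko. Its Myc ko arrays lay above all others, at 1.84-fold (1.56 to 2.16, limma adjusted p = 4.73e-04), with averages of 0.54 and 0.34. Cth, which makes cysteine from cystathionine, rose 4.45-fold (2.47 to 8.02, adjusted p = 3.50e-03), from 87.1, 71.7 and 72.2 in GFP wt to 341, 361 and 323 in Myc ko. Its Zfx average (1.01, adjusted p = 0.0359) missed the threshold without any of 9 arrays (all but Myc wt 1, Myc wt 2 and GFP ko 2; up to 0.0855).

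Cell cycle genes were listed by phase, and differences between the lists were not tested. In the combined change 9.76% of all genes rose and 8.09% fell. Of 37 DNA replication genes 10 rose and 2 fell (median 0.13), led by Orc1 at 1.47-fold; the rises were 6 without Myc ko 2 or GFP wt 3 and in a fit of the 2 groups alone, and 4 without GFP wt 2 or Myc ko 3, against 9.76% higher among all genes. Of 29 mitosis genes 0 rose and 6 fell (median -0.09; 2 and 8 with the block). Spag5, a spindle protein, fell 1.47-fold (1.32 to 1.63, limma adjusted p = 5.29e-04) through the Zfx part (-0.43), and the mitotic kinase Cdk1 fell 1.27-fold, also through the Zfx part (-0.29). Of 19 G1 genes 1 rose and 7 fell (4 and 9 with the block; 4 falls without Myc ko 2 or GFP wt 3). E2f1, a transcription factor of S phase entry, read 1122, 1111 and 1066 in GFP wt, 666, 691 and 722 in GFP ko, 1081, 974 and 973 in Myc wt, and 727, 640 and 669 in Myc ko (1.62-fold lower, 1.47 to 1.79, limma adjusted p = 1.26e-04), following the Zfx label under both viruses. Ccnd3, cyclin D3, fell 1.45-fold (1.22 to 1.71) through the Myc part (-0.58).

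Among survival genes, Bcl2 read 1253, 795 and 1125 in GFP wt, 979, 756 and 957 in GFP ko, 691, 575 and 663 in Myc wt, and 466, 536 and 421 in Myc ko. It was 2.2-fold lower (1.7 to 2.85, limma adjusted p = 1.34e-03), with a Myc average of -0.81 and a Zfx average of -0.33 (adjusted p = 0.112, and under the threshold with the block). The list counts that follow stand against 9.76% higher and 8.09% lower among all genes. Of 15 genes of the Bcl2 family 1 rose and 2 fell. Of 22 p53 target genes 3 rose and 2 fell (5 and 5 with the block), and Ei24 fell 1.56-fold through the Zfx part (-0.87). Max, the partner of Myc, rose 1.19-fold (1.1 to 1.29), and Mlx, a related factor that pairs with Mnt and Mondo proteins, fell 1.42-fold (1.26 to 1.6), among 3 rises and 3 falls of 14 network genes (1 fall without Myc ko 2 or GFP wt 3, and 5 with the block).

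Whether the 2 changes together gave more or less than their sum was tested with the interaction of virus and genotype. It passed for 0 of 19938 genes (0%) in limma's test, with 343 (1.72%) at an unadjusted p under 0.05. The erythroid list had an interaction median of 0.86 (log2), with 14 of 15 genes above 0 and 6 higher at an unadjusted p under 0.05, where the median of all genes was 0.00 and 51.4% lay above 0. DNA replication genes had a median of 0.14, with 36 of 37 above 0 and 1 at an unadjusted p under 0.05. With the block 1 gene passed, Nck2 (-0.80, adjusted p = 0.0198). Leaving out a single array gave 0 to 4 genes: Lgr4 without Myc wt 1, and Arpin, Epb42, Lin28b and Pkhd1l1 without Myc ko 1. Apart from Lgr4 and Pkhd1l1 these genes were named after their values were seen. The lowest p over all arrays belonged to Cenpv, Lgr4, Pkhd1l1, Ncs1 and Cysltr2. In Cenpv the Zfx effect was -2.33 under GFP and -1.31 under Myc, and its interaction had an adjusted p of 0.639. Counts of 0 do not show that the effects add exactly.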

How the data were processed

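RNA was measured on 12 gene arrays in 4 groups of 3, grouped by sample title. The deposited values are intensities made with RMA, per the submitters' processing notes. RMA in general corrects background, normalises by quantiles and summarises over probes. The values are on the linear scale, so log2 was taken with no pseudocount. The software version is not given in the sources used here. Of 35556 probe sets, 21789 have 1 gene symbol, 1621 several and 12146 are not listed. The brightest probe set stood for each of 19938 genes, 19856 of them matched to RefSeq by identifier.

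Groups were compared with limma 3.58.1 in R 4.3.3 (lmFit and eBayes, 4 group means over 12 arrays, Benjamini-Hochberg adjusted p under 0.05), and every adjusted p comes from this fit unless another is named. Intervals are 95% intervals of single genes, not adjusted. The 2 averages of virus and genotype add up to the combined change exactly. A gene was called cancelled when both averages passed in opposite directions, the combined change did not pass and the interval of the combined change lay within 1.5-fold. The calls of the 4 classes were tested on simulated data with planted effects of a single size and noise independent between arrays. The simulation did not cover smaller effects, paired arrays, the cancelled call or the interaction.

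Arrays with equal replicate numbers deviated together from their group means (r of 0.40 to 0.85 in 18 pairs across groups, median 0.64). The labels do not say what a number marks. Only the fit with the replicate block takes the numbers to pair arrays. The main fit leaves this pairing out, and so do its adjusted p-values, its intervals, the cancelled calls and the interaction test. A value with the replicate block stands beside most, not all, results whose call it alters or whose count it shifts by more than 1.5 times. The absence of such a value does not show that a result is stable.

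Members, lists (33, with 684 of 740 entries measured) and tests were chosen with earlier results of these data known. Named genes are Zfx, Myc, Idh2 and Ptpmt1; the 10 largest rises and falls whose arrays do not overlap; the 10 genes per class, and the 10 cancelled genes, with the largest smaller size of the 2 averages; the 5 lowest interaction p; and, per list, up to 4 called members and any member of a class. Predicted genes, small RNA genes and smell receptors were not named. Alternatives were the replicate block, centring, quantile normalization once more, a trended and robust prior, a filter on dim genes, the 2 groups alone, each change against GFP wt alone, and leaving out each array.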

Additional observations from a re-analysis of the deposited data

How the results depend on the processing

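With the replicate number as a block, 5788 genes passed in the combined change, 529 were raised by both changes, 579 lowered by both, 840 higher with Myc and lower in ko, 601 the reverse, 975 were called cancelled and 1 departed from the sum. In each class the block kept all genes called without it. When each change was instead taken alone against GFP wt, with fewer arrays behind each effect, the 4 classes held 31, 31, 115 and 33 genes.

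Leaving out a single array gave 2300 to 3674 genes for the combined change, 124 to 258 raised by both, 152 to 251 lowered by both, 302 to 379 higher with Myc and lower in ko, 117 to 168 the reverse, 318 to 399 cancelled and 0 to 4 departing from the sum. The lowest counts came without GFP wt 3 for the first 3 and without Myc wt 3 for the next 3. Of 131 named genes past the threshold in the combined change, 113 kept it without each array and 18 lost it without at least 1.

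A second quantile normalization, centring, a trended and robust prior, the filter on dim genes and (for the combined change) the 2 groups alone kept all these counts within 1.5 times. Genes that passed in the combined change both in the main fit and under one of these alternatives kept their sign. Sign changes within the classes were not counted. The share of higher genes among the combined calls was 54.7%, and 53.9% and 55.4% under the other scalings. Dim genes have no detection call here, so folds near the array median may be compressed by background to an unknown extent.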

Other observations

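For gene lists outside growth and lineage the counts in the combined change stand against 9.76% higher and 8.09% lower among all genes. Of 18 genes of the unfolded protein response 0 rose and 4 fell, among them Dnajc3, a chaperone cofactor, at 1.43-fold lower (1.23 to 1.67, limma adjusted p = 5.45e-03). The count was 7 with the block, 2 with centred arrays, in a fit of the 2 groups alone or without GFP wt 2, and 1 without Myc ko 3 or GFP wt 3. Of 19 cholesterol synthesis genes 0 rose and 1 fell, Tm7sf2, a sterol reductase (1.69-fold, 1.42 to 2.03, limma adjusted p = 1.67e-03); 4 fell in the Zfx average (13 with the block), and 5 fell in the combined change with the block. Of 20 lysosome genes 0 passed in limma's test (1 higher and 5 lower at an unadjusted p under 0.05; 1 and 7 called with the block; 3 lower after a second quantile normalization).

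Among 23 immediate early genes 1 rose and 1 fell (3 and 5 with the block). The fall was Dusp6, a phosphatase that shuts off ERK signalling. It read 810, 1790 and 953 in GFP wt and 169, 536 and 295 in Myc ko, with the second array the highest in each group. It was 3.72-fold lower (1.72 to 8.09, limma adjusted p = 0.0249; 2.31e-05 with the block), a call lost without Myc ko 1, GFP wt 2, Myc ko 3 or GFP wt 3 (up to 0.0859). Of 16 cytokine receptor genes 1 rose (Epor) and 2 fell (5 with the block): Ifngr1, the interferon gamma receptor, was 1.98-fold lower (1.46 to 2.69) and Tnfrsf1a, a tumour necrosis factor receptor, 1.65-fold lower (1.37 to 1.99). Of 5 polyamine genes 1 rose, spermidine synthase Srm (1.23-fold, 1.11 to 1.36, limma adjusted p = 0.0102), and with the block 2 rose and 2 fell. Of 11 telomere genes 3 rose and 1 (Terc) fell.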
